A study of Sus scrofa with 18 samples.

Results

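The genes described here encode the nuclear-encoded subunits of the oxidative phosphorylation machinery of mitochondria, measured in the retinas of young pigs. They were taken as all genes whose single symbol in the array's annotation begins with NDUFA, NDUFB, NDUFC, NDUFS, NDUFV, UQCR, COX4 to COX8 or ATP5, or is SDHA, SDHB, SDHC, SDHD or CYC1. This rule found 63 genes on 80 probe sets, among the 5710 named genes that were tested. Each gene was read from its brightest probe set, and all 63 genes had a probe set above the limit for dim signals. Of the 63 genes, 32 were counted with complex I, 4 with complex II, 2 with complex III, 8 with complex IV and 14 with complex V. The 14 include ATP5S, coupling factor B, which was placed there by its name. The other 3 (NDUFAF1, NDUFAF2 and NDUFAF3) are named like subunits but encode assembly factors of complex I. The rule uses no difference between retinas or diets, and many known subunits, such as UQCRC1, CYC1, COX4I1, COX5A and ATP5C1, were not analysed here.

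Total RNA of whole retina was hybridised to Affymetrix pig arrays, 1 array for each of 18 male Landrace and Large White cross piglets. All piglets entered the study at 3 days of age, were fed pig milk replacer and were sampled at postnatal day 38. The 9 control piglets had the replacer alone, which the labels call feeding at a basal level, and the 9 sialyllactose piglets had the replacer with added sialyllactose, a milk sugar of lactose and sialic acid. The labels place the piglets in the diets at random and name no litter, and the study asked how the added milk sugar bears on the developing retina and on vision.

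The respiratory chain passes electrons from NADH and succinate through complexes I and II to ubiquinone, then through complex III and cytochrome c to complex IV, where oxygen is reduced. Complexes I, III and IV pump protons across the inner mitochondrial membrane, and complex V, the ATP synthase, uses the return flow to make ATP. Photoreceptors pack mitochondria densely into their inner segments, and the retina is known for its high use of oxygen. In extracts of a whole tissue, fewer cells of a type and less RNA per cell cannot be told apart.

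Over the 16799 tested probe sets, any pair of arrays correlated at 0.981 to 0.992. The number of arrays, 9 per diet, is among the limits on precision. Some markers of retinal cells were bright: SAG, the rod arrestin, had a mean log2 level of 10.6, ARR3, the cone arrestin, 9.63, and NEFL, a neurofilament of ganglion cells, 9.76. Each was the brightest tested marker of its list. Tested were 2 of 11 rod, 4 of 9 cone and 5 of 10 ganglion and amacrine markers. The dimmest of these had mean levels of 3.33, 1.65 and 3.28. All levels below are the deposited log2 values, on which a difference of -0.10 is a fold of 0.931. Levels of different probe sets reflect their probes as well as the RNA, so levels of RNA are compared between retinas and not between genes.

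Most of the 63 genes had closely similar levels in all 18 retinas. The SD between retinas within diets was 0.044 for ATP5L, the g subunit of the ATP synthase, at the lower end and 0.24 for NDUFAF2 at the upper end, with a median of 0.080. Over all 5710 tested genes the median SD was 0.14. Bright probe sets vary less in general, and among genes with a mean level above 6 the medians were 0.077 for 52 of the genes described here and 0.10 for all 1220. Next to NDUFAF2, wide spreads belonged to SDHC (0.18), COX7C (0.17), ATP5S (0.16) and NDUFB9 (0.15), and next to ATP5L, narrow ones to ATP5A1 (0.047) and ATP5G3 (0.048). The probe sets of NDUFAF1 and NDUFV3 lay closest to the limit for dim signals, with mean levels of 2.06 and 2.13 against 1.48. Just outside that limit lay a further probe set of ATP5I at 1.26.

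**Figure D1:**
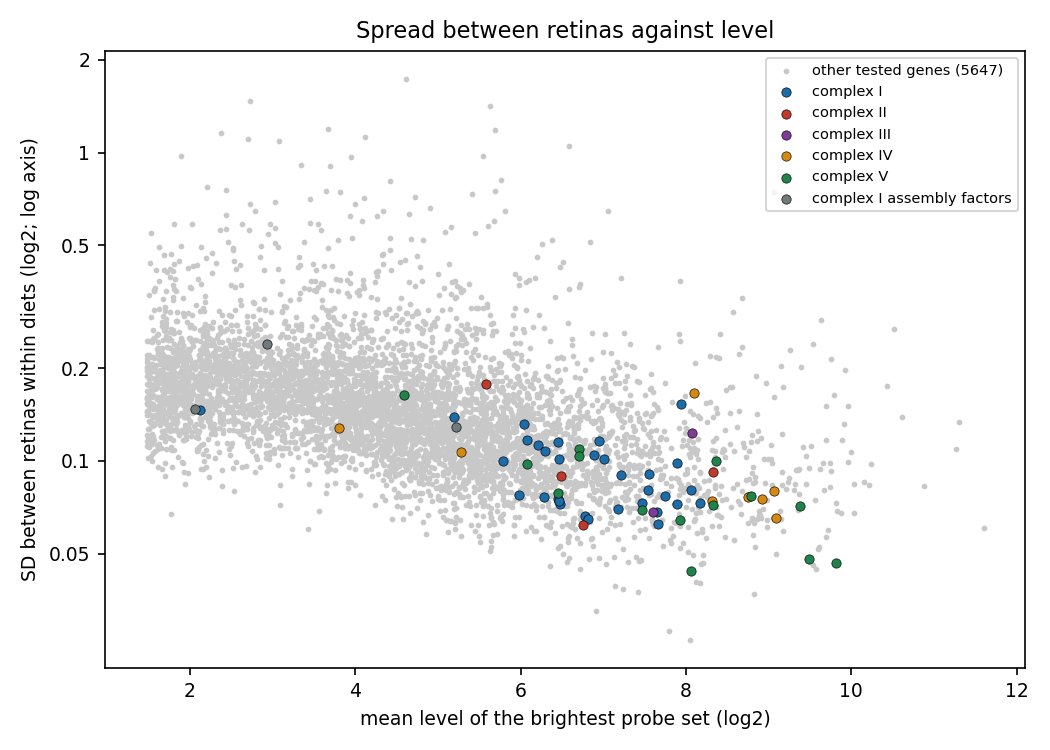
SD between retinas within diets (log2, log axis) against the mean level of the brightest probe set (log2) for 5710 tested genes, with the 63 oxidative phosphorylation genes coloured by complex. The coloured points above a level of 6 lie mostly in the lower part of the cloud, with COX7C and NDUFB9 in its upper part, and the dim assembly factor NDUFAF2 has the widest spread at 0.24.

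None of the 63 genes differed between the diets beyond the spread between piglets. In limma, 0 of 63 genes had an adjusted p under 0.05, and over all probe sets 0% were called. The lowest adjusted p among the genes was 0.779, and at an unadjusted p under 0.05 there were 0 of 63 genes against 6.30% of all probe sets. The levels of the 9 control and 9 sialyllactose retinas overlapped in every gene, and 0% of all probe sets had groups that did not overlap. An exact rank-sum test gave an unadjusted p under 0.05 for 1 gene, ATP5J, against 5.32% of all probe sets, and 0 genes after adjustment.

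As deposited and read from their brightest probe sets, all 63 genes had a 95% interval of the diet difference inside 1.2-fold either way. For 35 genes it lay inside 1.1-fold. Over all probe sets, which include dimmer ones, the shares were 72.9% and 11.2%. Among genes with a level above 6, 1.2-fold held 52 of the 52 genes described here and 94.2% of all 1220, and 1.1-fold held 33 of 52 and 39.9%. The bound does not extend to the dimmer probe sets of the same genes. Of 13 such probe sets, 6 had an interval that passed 1.2-fold, belonging to NDUFV2, NDUFS3 (to 0.44), NDUFA1 (to -0.37), SDHA (to -0.31), SDHB and ATP5L. Among the brightest probe sets the bound farthest from 0 was 0.257, that of COX8H, close to the 0.263 that is 1.2-fold. The difference of COX8H was larger under other scalings, at 0.145 with arrays centred on their medians and 0.140 with quantile normalization. Intervals under those scalings are not given here, so the 1.2-fold bound may not hold there for COX8H. Differences ran from -0.10 for NDUFV1 to 0.13 for COX8H, with a median absolute difference of 0.028, against 0.049 over all tested genes and 0.034 over those with a level above 6.

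Small differences leaned to the lower side with sialyllactose as the values were deposited, but this balance turned with the scaling. Means were lower in 40 of the 63 genes, against 53.4% of all probe sets and 62.6% of the tested genes with a level above 6. Once arrays were centred on their medians the count was 28 of 63, against 44.2% of all probe sets and 48.4% of the genes above 6. Centring adds the same 0.018 to the difference of every probe set, so it turns the sign of each gene whose mean was lower by less than that. With quantile normalization over the tested probe sets, whose shift varies between probe sets, the count was 31, against 48.8% and 50.2%. The median difference of the 63 genes was -0.016 as deposited, 0.0017 after centring and 0.00084 after quantile normalization. Over all tested probe sets the median was -0.0065 as deposited, and 0.011 and 0.0021 under those scalings. By complex, the median difference was -0.0029 for complex I, -0.045 for complex II, 0.028 for complex III, -0.010 for complex IV and -0.025 for complex V. The signs for complexes I and IV turned under both other scalings (0.015 and 0.011 for complex I, 0.0075 and 0.016 for complex IV), while those of complexes II, III and V kept their sign. Complex II stood at -0.028 under both, complex III at 0.046 and 0.040, and complex V at -0.0072 after centring and -0.012 after quantile normalization.

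**Figure D2:**
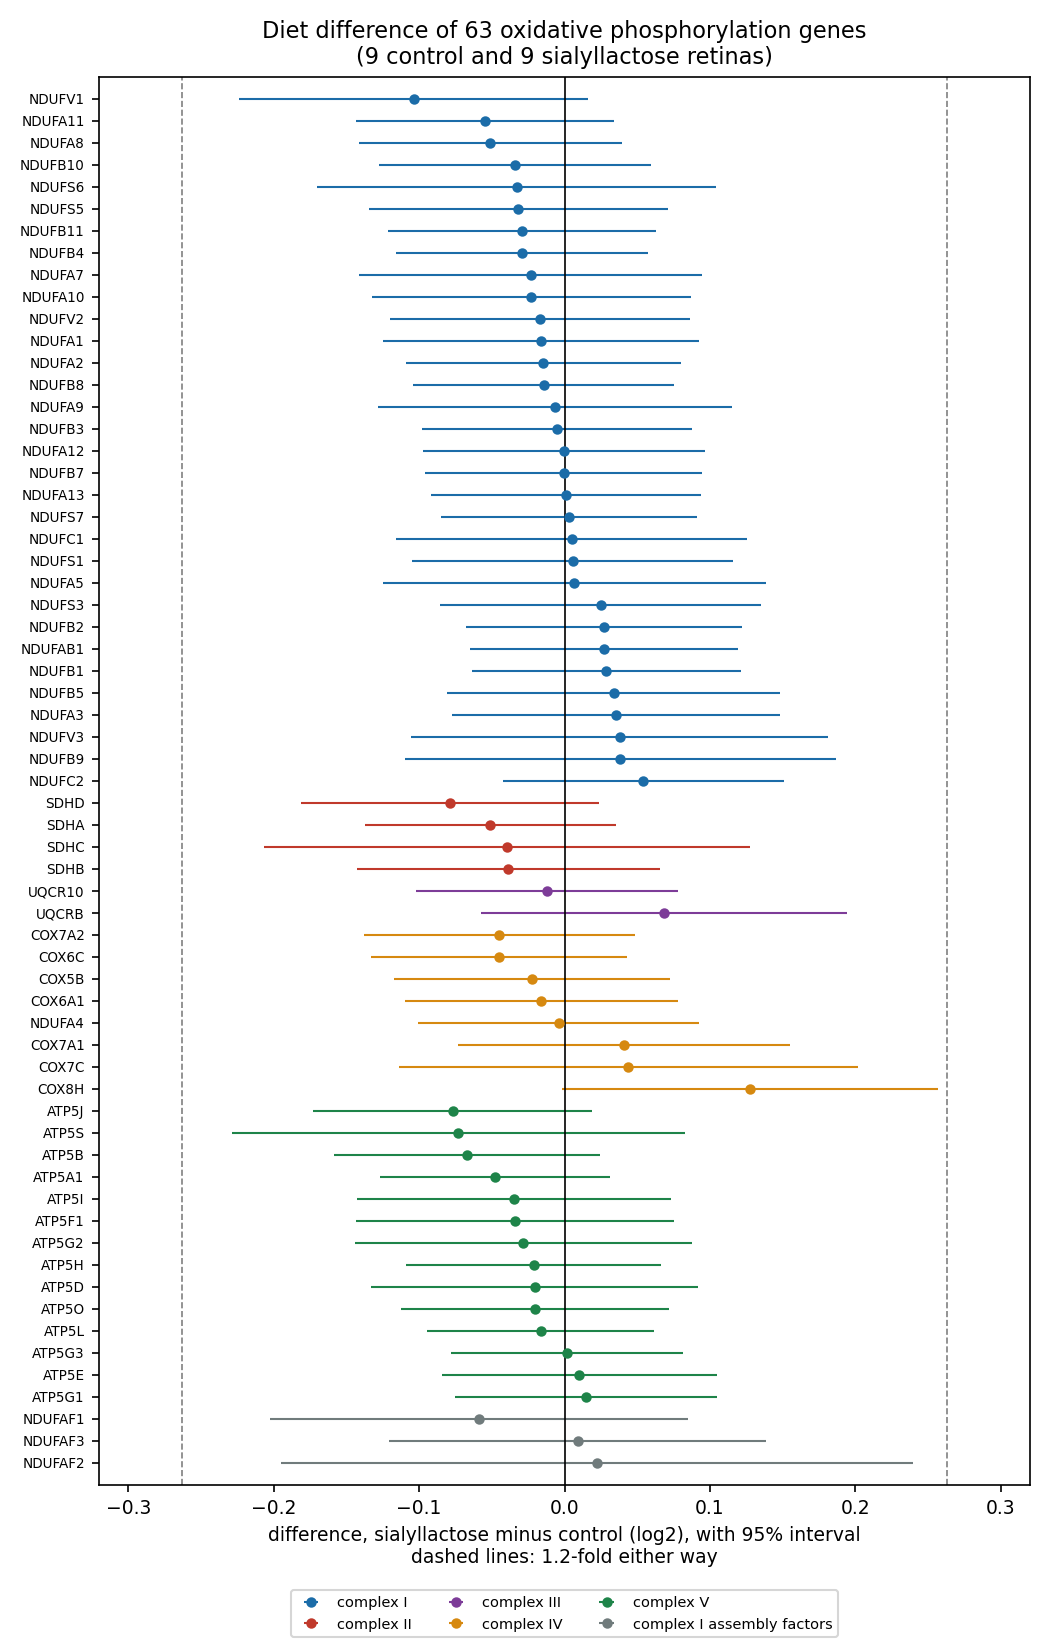
Difference of mean log2 level, sialyllactose minus control, for each of the 63 genes, grouped by complex and ordered by difference, with its 95% interval from limma (9 retinas per diet). Every interval crosses 0 and lies inside the dashed lines at 1.2-fold, and the point farthest from 0 belongs to COX8H at 0.13.

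Complex I takes electrons from NADH at the tip of its matrix arm. NDUFV1, the subunit that holds the flavin and receives these electrons, ranged from 6.34 to 6.79 in control retinas (median 6.46) and from 6.27 to 6.53 with sialyllactose (median 6.39). Control 2, 7 and 8 stood above all sialyllactose retinas, and the other 6 control retinas lay among them. The difference was -0.10 (95% interval -0.22 to 0.016, limma adjusted p = 0.795), and without control 2 it was -0.068. NDUFS1, the large iron-sulphur subunit next to it, was at 6.46 ± 0.13 in control and 6.46 ± 0.059 in sialyllactose retinas (n = 9 each), a difference of 0.0055. NDUFV3, a small accessory subunit beside NDUFV1, was dim, at 2.11 ± 0.15 in control and 2.14 ± 0.14 in sialyllactose retinas. Of the 7 genes of this NADH-oxidising part, 5 had lower means with sialyllactose as deposited, but 2 after centring of the arrays and 3 after quantile normalization.

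The part of complex I that reduces ubiquinone was represented by 5 genes, of which 2 had lower means as deposited and 1 under either other scaling. NDUFS7, the core iron-sulphur subunit next to ubiquinone, was at 6.81 ± 0.082 in control and 6.81 ± 0.042 in sialyllactose retinas, and the 95% interval of its difference ran from -0.085 to 0.091. In the membrane arm, NDUFA11, an accessory subunit, ranged from 6.70 to 6.94 in control retinas (median 6.80) and from 6.64 to 6.79 with sialyllactose (median 6.76). All 9 sialyllactose retinas lay below the control median of NDUFA11. Control 1, 5, 6 and 9 lay among them, and control 2, 3, 4, 7 and 8 lay above them all. The difference was -0.055 (95% interval -0.14 to 0.034, limma adjusted p = 0.87). NDUFA8, a further accessory subunit of that arm, was at 7.20 ± 0.081 in control and 7.15 ± 0.056 in sialyllactose retinas, with a difference of -0.051.

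Counted over the 63 genes, 3 had all 9 sialyllactose retinas below the control median (NDUFA11, NDUFS5 and ATP5A1), against 2.33% of all probe sets. In 1 gene, COX8H, all 9 lay above it, against 1.79%. These are 4.76% and 1.59% of the 63 genes, and none of the 4 passed the test. NDUFS5, an accessory subunit of the membrane arm, is named here after its values were seen. It ranged from 7.03 to 7.39 in control retinas (median 7.29) and from 7.15 to 7.25 with sialyllactose (median 7.21), with control retinas at either end.

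NDUFB9, an accessory subunit at the far end of the membrane arm, varied most among the complex I genes. It ranged from 7.74 to 8.14 in control retinas (median 7.88) and from 7.83 to 8.32 with sialyllactose (median 7.87). Sialyllactose 4 and control 4 stood at the top and control 5 and 6 at the bottom, and the wide spread was present in both diets. The difference was 0.038 (95% interval -0.11 to 0.19) and turned to -0.0074 without sialyllactose 4. The 11 genes of this far end differed by -0.034 to 0.038, with 6 lower means as deposited, 3 after centring and 4 after quantile normalization, and the 9 genes of the nearer membrane arm by -0.055 to 0.054, with 5, 4 and 5 lower means.

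The 3 assembly factors help to build complex I and are not part of the finished enzyme. NDUFAF1 was at 2.09 ± 0.17 in control and 2.03 ± 0.12 in sialyllactose retinas, NDUFAF2 at 2.92 ± 0.27 in control and 2.94 ± 0.21 in sialyllactose retinas and NDUFAF3 at 5.21 ± 0.10 in control and 5.22 ± 0.15 in sialyllactose retinas. NDUFAF2 ranged from 2.58 to 3.31 in control retinas (median 2.89) and from 2.55 to 3.16 with sialyllactose (median 3.02), and the diets covered similar spans. Their differences of -0.059, 0.022 and 0.0091 were smaller than these SDs. That of NDUFAF1 was -0.015 without control 7, and those of NDUFAF2 and NDUFAF3 changed sign when single retinas were left out.

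Complex II, succinate dehydrogenase, joins the citric acid cycle to the respiratory chain and is encoded by 4 nuclear genes, all of which were measured. All 4 had lower means with sialyllactose, also under both other scalings, and none passed the test. SDHD, a membrane anchor, ranged from 6.41 to 6.66 in control retinas (median 6.51) and from 6.28 to 6.59 with sialyllactose (median 6.46). Sialyllactose 3, 2 and 1 were the lowest of all retinas and control 3 and 6 the highest, with the others mixed. Its difference was -0.079 (95% interval -0.18 to 0.024, limma adjusted p = 0.834).

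SDHA, the flavoprotein that oxidises succinate, ranged from 6.68 to 6.87 in control retinas (median 6.77) and from 6.61 to 6.82 with sialyllactose (median 6.73). The groups overlapped over most of this span, and the difference was -0.051 (95% interval -0.14 to 0.035). SDHB, the iron-sulphur subunit, ranged from 8.23 to 8.54 in control retinas (median 8.35) and from 8.14 to 8.42 with sialyllactose (median 8.31), with sialyllactose 8 lowest and control 7 highest. Its difference was -0.039 (-0.14 to 0.066), or -0.014 without control 7. Each of these 2 genes had a second, dimmer probe set, which differed by -0.16 (-0.31 to -0.00080) for SDHA and by -0.13 (-0.27 to 0.0061) for SDHB, with limma adjusted p = 0.779 and 0.781. The 2 probe sets of a gene thus had the same sign, but across the 18 retinas they correlated at r = -0.23 for SDHA and -0.32 for SDHB.

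SDHC, the other membrane anchor, had a wide spread. It ranged from 5.13 to 5.82 in control retinas (median 5.59) and from 5.40 to 5.84 with sialyllactose (median 5.52). Control 5 lay far below the other retinas, at 5.13 against 5.40 or more elsewhere. The difference was -0.040 (95% interval -0.21 to 0.13), and without control 5 it was -0.098.

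Complex III, the cytochrome bc1 complex, was represented only by 2 small subunits. UQCRB ranged from 7.87 to 8.20 in control retinas (median 8.07) and from 7.94 to 8.25 with sialyllactose (median 8.09). Control 1, 7, 2 and 9 were lowest, and sialyllactose 2 and 1 highest, yet the groups overlapped from 7.94 to 8.20. The difference was 0.068 (95% interval -0.058 to 0.19, limma adjusted p = 0.889). UQCR10 was at 7.61 ± 0.067 in control and 7.59 ± 0.070 in sialyllactose retinas, and its difference of -0.012 changed sign under both other scalings.

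Complex IV, cytochrome c oxidase, carries small nuclear-encoded subunits around its catalytic core, and several of them exist in a form found in most tissues and a form of heart and skeletal muscle. The heart-type form of subunit 8, COX8H, had the smallest p of the 63 genes. It ranged from 3.59 to 3.94 in control retinas (median 3.70) and from 3.71 to 4.03 with sialyllactose (median 3.81). Control 4, 7, 5, 9 and 1 lay below every sialyllactose retina, but control 8, 6, 2 and 3 were spread among them. The means were 3.74 ± 0.14 in control and 3.87 ± 0.11 in sialyllactose retinas, a difference of 0.13 (95% interval -0.0018 to 0.26, limma adjusted p = 0.779), and over all alternatives this adjusted p stayed between 0.683 and 0.883.

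COX7A1, the heart and muscle form of subunit 7A, was at 5.26 ± 0.086 in control and 5.30 ± 0.12 in sialyllactose retinas (difference 0.041, 95% interval -0.073 to 0.15). Its counterpart of most tissues, COX7A2, was at 8.33 ± 0.092 in control and 8.29 ± 0.051 in sialyllactose retinas (difference -0.045, 95% interval -0.14 to 0.048). Across the 18 retinas COX7A1 correlated with COX8H at r = -0.04. Its correlation with COX7A2 was -0.29, made up of -0.58 within control and 0.0043 within sialyllactose retinas, a difference that was not tested. Of 10 muscle markers 4 were tested. DES, a filament of muscle and of vessel walls, had a mean level of 7.02, ACTN2 of 3.04, TNNC2 of 2.07 and MYH7 of 1.81. The muscle list had 3 higher and 1 lower means (2 and 2 after quantile normalization), with ACTN2 at a difference of 0.20 (limma adjusted p = 0.753). Its mean deviation ran from -0.17 to 0.13 over control and from -0.065 to 0.14 over sialyllactose retinas, and its part in the values of COX8H and COX7A1 was not tested.

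The subunits of complex IV found in most tissues lay close together between diets. COX6C, a small membrane subunit, was at 9.11 ± 0.064 in control and 9.07 ± 0.066 in sialyllactose retinas (difference -0.045), and COX6A1, the common form of subunit 6A, at 8.92 ± 0.077 in control and 8.91 ± 0.074 in sialyllactose retinas (difference -0.016). COX5B, the zinc-binding subunit, was at 8.77 ± 0.098 in control and 8.74 ± 0.046 in sialyllactose retinas (difference -0.022). NDUFA4, which was named for complex I and is now counted in complex IV, was at 9.07 ± 0.097 in control and 9.07 ± 0.058 in sialyllactose retinas (difference -0.0040). The signs of COX6A1 and NDUFA4 turned under both other scalings and that of COX5B under quantile normalization. The pig gene table lists 2 loci named NDUFA4, whose probe set could hold RNA of both.

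COX7C, a small membrane subunit, had the second widest spread of the subunit genes. It ranged from 7.90 to 8.29 in control retinas (median 8.12) and from 7.86 to 8.38 with sialyllactose (median 8.08). Sialyllactose 4 and 5 were highest and sialyllactose 3 and 6 lowest, so that the sialyllactose retinas enclosed the control ones. The difference was 0.044 (95% interval -0.11 to 0.20). It was 0.010 without sialyllactose 5, and with the mean of both its probe sets it was -0.0097.

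Complex V makes ATP in its F1 head, which is held by a peripheral stalk and turned by a ring of c subunits in the membrane. The head's alpha and beta subunits, ATP5A1 and ATP5B, hold the catalytic sites. ATP5A1 ranged from 9.74 to 9.93 in control retinas (median 9.84) and from 9.74 to 9.82 with sialyllactose (median 9.79). The sialyllactose retinas lay in a narrow band inside the control range, all 9 below the control median. The difference was -0.048 (95% interval -0.13 to 0.031, limma adjusted p = 0.874).

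ATP5B ranged from 9.29 to 9.49 in control retinas (median 9.42) and from 9.24 to 9.44 with sialyllactose (median 9.36), and 8 of 9 sialyllactose retinas were below the control median. Its difference was -0.067 (95% interval -0.16 to 0.025, limma adjusted p = 0.844). Although their proteins occur in equal numbers, ATP5A1 and ATP5B correlated across retinas at r = -0.20.

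In the peripheral stalk, ATP5J, coupling factor 6, ranged from 6.42 to 6.69 in control retinas (median 6.48) and from 6.27 to 6.54 with sialyllactose (median 6.42). Control 2 stood highest, sialyllactose 7 lowest, and 8 of 9 sialyllactose retinas were below the control median. The difference was -0.077 (95% interval -0.17 to 0.019, limma adjusted p = 0.821), or -0.052 without control 2. ATP5O, the subunit that confers oligomycin sensitivity, was at 8.34 ± 0.060 in control and 8.32 ± 0.082 in sialyllactose retinas, a difference of -0.020. All 4 stalk genes had lower means as deposited and under both other scalings, with deposited differences from -0.077 to -0.020. In the whole of complex V, 11 of 14 genes had lower means as deposited, 10 after centring and 11 after quantile normalization, and 0 were called. Such a lean was not particular to these genes. Of 56 cytosolic ribosomal protein genes, 52 had lower means as deposited, 45 after centring and 43 after quantile normalization.

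The 3 genes of the c ring, ATP5G1, ATP5G2 and ATP5G3, encode the same mature protein behind different import sequences. ATP5G3 was at 9.49 ± 0.037 in control and 9.49 ± 0.057 in sialyllactose retinas and had the smallest of the 3 differences, 0.0018 (95% interval -0.078 to 0.081). ATP5G1 differed by 0.015 and ATP5G2 by -0.028. Between retinas, ATP5G1 correlated with ATP5G3 at r = 0.41, and ATP5G2 with ATP5G1 at 0.22 and with ATP5G3 at 0.13.

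ATP5S, coupling factor B, stood apart within complex V. It ranged from 4.27 to 4.94 in control retinas (median 4.68) and from 4.39 to 4.72 with sialyllactose (median 4.57), and control retinas held the highest and the lowest value (control 9 and control 8). The difference was -0.073 (95% interval -0.23 to 0.083, limma adjusted p = 0.905), and it ran from -0.12 without control 8 to -0.034 without control 9. Its level ran against the mean of the other 62 genes across the 18 retinas (r = -0.64). ATP5A1 also had a negative correlation with the mean of the other genes, at r = -0.29. A second, dimmer probe set of ATP5S correlated with its brightest one at r = 0.28 and differed by -0.013 between diets.

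**Figure D3:**
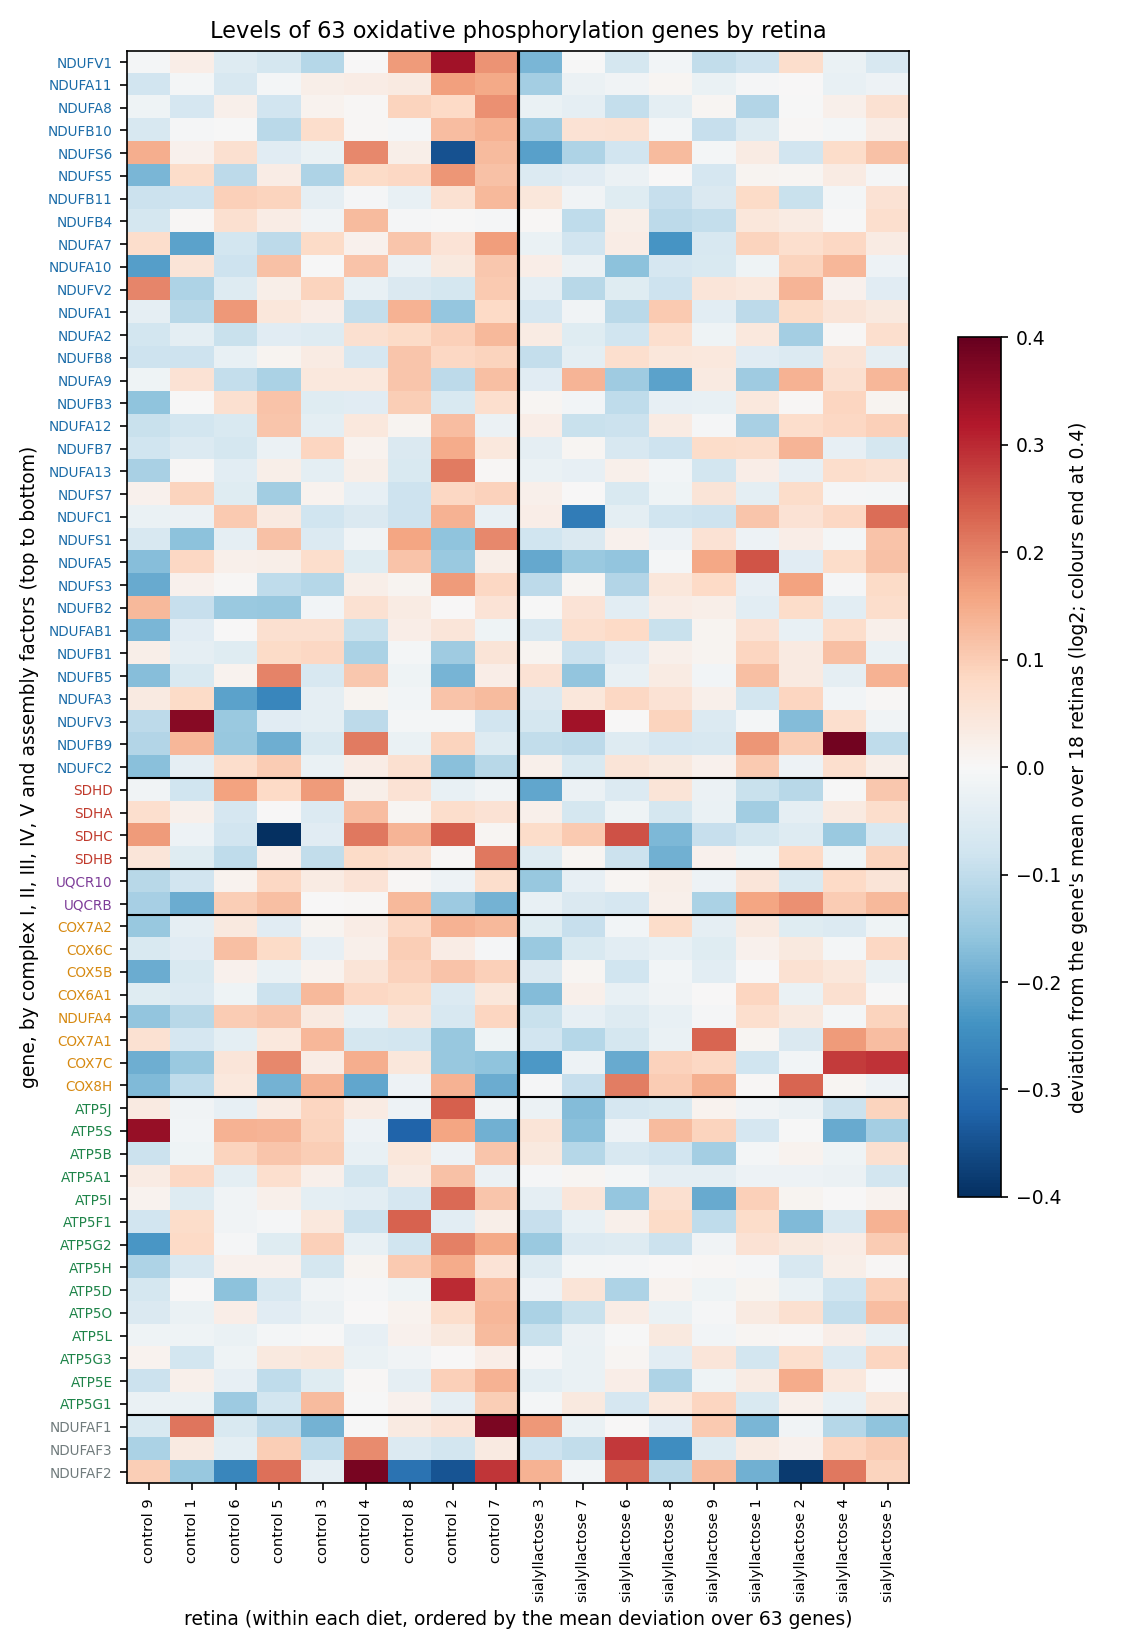
Deviation of each of the 63 genes (rows, by complex) from its own mean over 18 retinas (log2, colour), with the retinas of each diet ordered by their mean deviation. Control 9 and sialyllactose 3 are mostly blue and control 7 and sialyllactose 5 mostly red, while ATP5S, NDUFV3 and NDUFC2 do not follow that order.

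The measured levels of these genes varied together between retinas only in part. Over all 1953 pairs, the median correlation of diet-centred values was 0.13, and 67.4% of the pairs were above 0. Over all tested genes the median was 0.0077, and over genes with a level above 6 it was 0.067, against 0.19 for the 52 genes described here above that level. Cytosolic ribosomal protein genes, given for scale, had a median of 0.42 among themselves and of 0.19 with the genes described here. These are descriptions over 18 retinas, and all pairs share the same arrays and their normalization. Even within a gene, 13 further, dimmer probe sets of 10 genes correlated with the brightest one at a median of 0.022. The part of measurement error in the correlations between genes was not tested. With arrays centred on their medians the median of the 1953 pairs was 0.19.

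Pairs within a complex were hardly closer than pairs from different complexes, with medians of 0.15 over 622 pairs and 0.14 over 1148. Complex IV had the highest median among the larger complexes, 0.30 over 28 pairs, followed by complex V at 0.17 and complex I at 0.15. Complex II had a median of -0.047 over its 6 pairs. SDHA and SDHB, which form its matrix part, correlated at 0.51, and the membrane anchors SDHC and SDHD at -0.39.

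Close pairs lay both within and between complexes. Pairs from different complexes are the more numerous in any case, with 1148 against 622 within a complex, the assembly factors left aside. NDUFA11 of complex I and ATP5L of complex V had the highest correlation of all pairs, r = 0.80, which was 0.79 within control and 0.86 within sialyllactose retinas. NDUFV1 and NDUFA11 followed at 0.78, COX6C and NDUFA4 at 0.76, and 3 pairs at 0.75: NDUFA11 with NDUFB10, COX7A2 with ATP5H, and UQCRB with COX6C. Of these 6 pairs, 5 had r from 0.66 to 0.92 within each diet, while COX7A2 with ATP5H had 0.86 within control and 0.22 within sialyllactose retinas. Some partners ran in opposite directions. NDUFS7 and NDUFC2, both of complex I, had r = -0.77, NDUFA3 and NDUFC2 -0.73, and NDUFS6 and ATP5A1 -0.75. The negative sign of these 3 pairs was present within each diet. All pairs named here were picked as extremes of the 1953 pairs, so their values within each diet are no independent check. Over the far more numerous pairs of all tested genes, r ran from -0.94 to 0.99.

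NDUFA11, COX5B and ATP5G2 followed the mean of the other genes most closely, at r = 0.73, 0.73 and 0.72. The first principal component of the diet-centred and scaled values held 21.7% of their variance, with 53 of the 63 genes on the same side, and the next components held 17.8% and 9.79%.

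**Figure D4:**
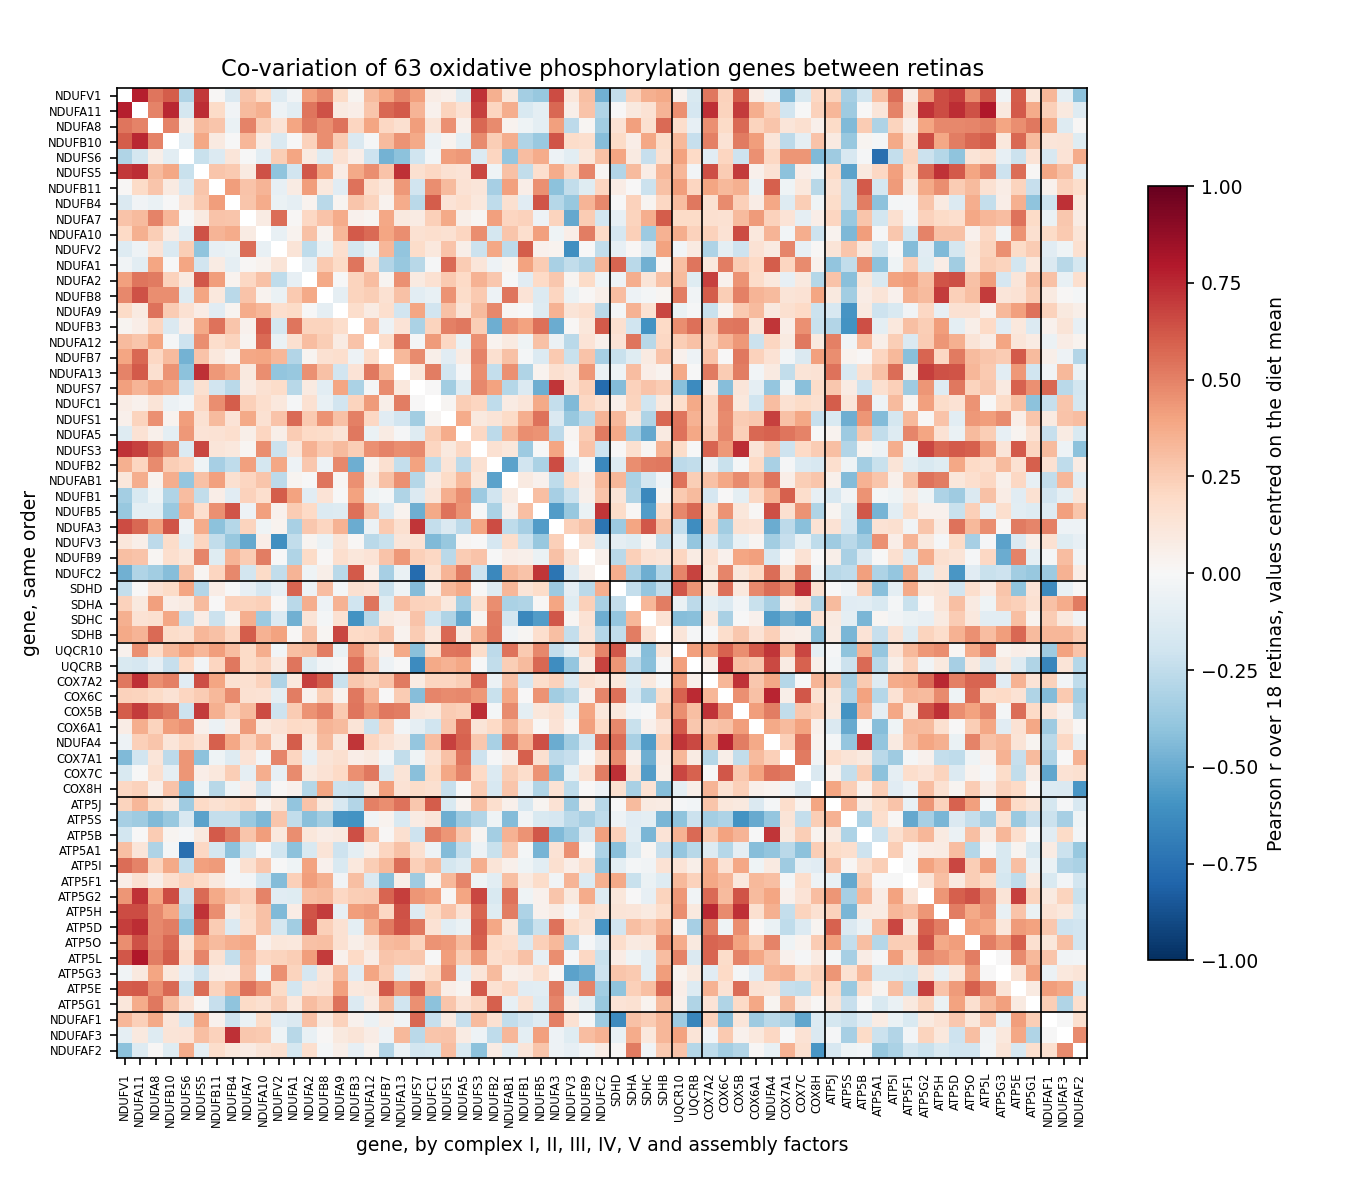
Pearson correlation between every pair of the 63 genes over 18 retinas, after each gene was centred on its diet mean, with lines between the complexes. Red cells, such as NDUFA11 with ATP5L at 0.80, and blue cells, such as NDUFS7 with NDUFC2 at -0.77, occur inside and between the complexes, and the row of ATP5S is mostly blue.

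The mean deviation of the 63 genes in a retina was small. It ran from -0.052 in control 9 and -0.047 in sialyllactose 3 to 0.041 in sialyllactose 5 and 0.063 in control 7, and was 0.0053 ± 0.034 in control and -0.0053 ± 0.029 with sialyllactose. In control 7, 47 of the 63 genes lay above their own mean, and in control 9 and sialyllactose 3 only 17. The mean deviations of complexes I and IV correlated at r = 0.63, of I and V at 0.57 and of III and IV at 0.75. Complex II correlated with the 4 other complexes at -0.20 to 0.24.

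Control 9 and sialyllactose 3 also had the largest differences between the 3' and 5' control probe sets of actin, 3.68 and 3.80, a sign of RNA quality. Elsewhere this difference ran from 2.87 to 3.60. It correlated with the mean deviation of the 63 genes at r = -0.58 (Spearman -0.53), at -0.70 within control and -0.48 within sialyllactose retinas, and at -0.25 without those 2 retinas. The same difference for the GAPDH control probe sets correlated less, at r = -0.30 (Spearman -0.14) and at -0.11 without the 2 retinas farthest from its median. Of the 63 genes, 50 correlated negatively with the actin difference, NDUFB10 most (r = -0.64), against 48.3% of all tested genes. For the GAPDH difference 44 of the 63 genes did, against 43.8% of all tested genes. Median correlations of the 63 genes were -0.23 with actin and -0.11 with GAPDH, against 0.011 and 0.039 over all tested genes. ATP5S had the highest correlation of the 63 genes with both, at r = 0.42 for actin and 0.43 for GAPDH. Without the 2 retinas the median correlation between pairs was 0.11 and 40 genes still had lower means with sialyllactose. With the actin difference as a covariate these values were 0.094 and 32.

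**Figure D5:**
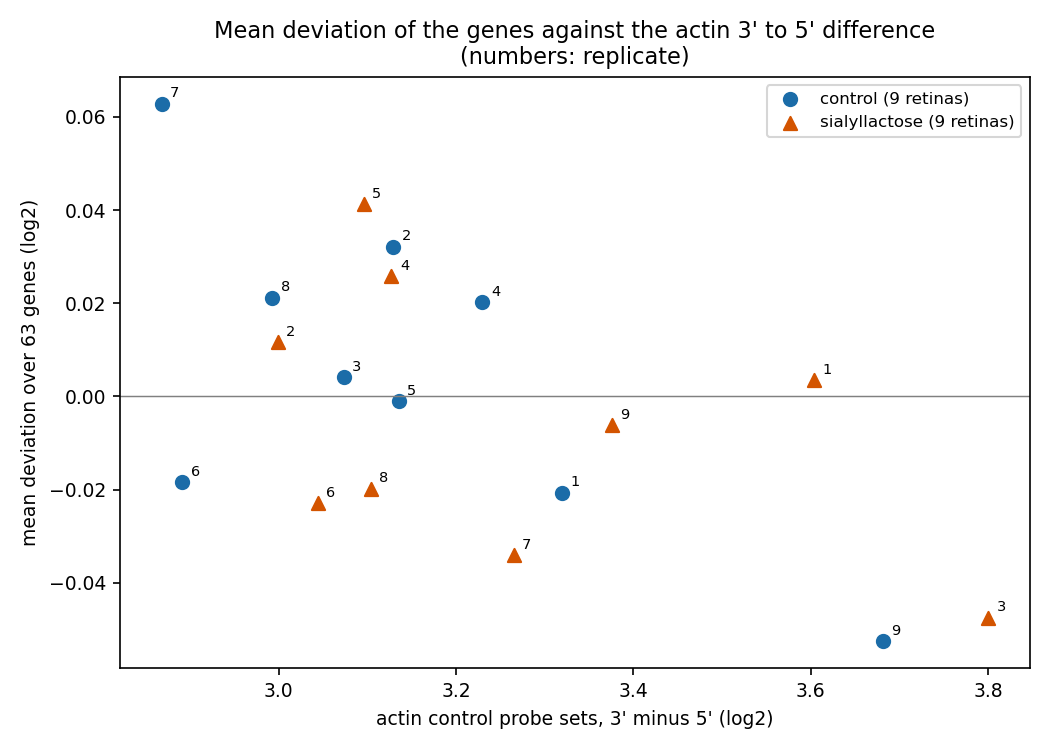
Mean deviation of the 63 genes in each retina (log2) against the difference between the 3' and 5' actin control probe sets on the same array (log2), with replicate numbers beside the points. Control 9 and sialyllactose 3 lie at the lower right (3.68 and -0.052, 3.80 and -0.047) and control 7 at the upper left (2.87 and 0.063).

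Spread was larger in control than in sialyllactose retinas for 46 of the 63 genes, against 62.6% of all probe sets, with a median ratio of SDs of 1.29 against 1.14. ATP5A1 (SD 0.061 and 0.024) and ATP5H of the peripheral stalk (0.087 and 0.028) are examples, the latter named after its values were seen. Without control 2, 7 or 9 alone the count was 46, 46 or 45 of 63, against 54.6%, 61.7% or 60.9% of all probe sets. Without control 2 and 9 it was 39, against 51.1%, and without control 2, 7 and 9 it was 32, against 48.5%. Control 7 and 9 had the highest and lowest mean deviation, so leaving them out narrows the control spread by itself. These counts were not tested.

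Other genes of mitochondrial energy metabolism also showed no called difference, with 0 adjusted calls in each list. In the citric acid cycle, which feeds the chain, means were lower in 12 of 15 genes as deposited and in 9 under either other scaling. FH, fumarase, was at 6.35 ± 0.15 in control and 6.23 ± 0.11 in sialyllactose retinas (difference -0.12, 95% interval -0.25 to 0.0097), and OGDH differed by -0.069 and DLAT by 0.088. Among 8 genes of electron carriers and coenzyme Q synthesis 3 had lower means, and 2 under either other scaling. CYCS, cytochrome c itself, had a wide spread at 6.64 ± 0.33 in control and 6.54 ± 0.39 in sialyllactose retinas (difference -0.092, 95% interval -0.41 to 0.23), and PDSS1, which builds the side chain of coenzyme Q, differed by 0.11.

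Carriers and pores of the mitochondrial membranes had lower means in 6 of 12 genes (5 after centring), with the nucleotide carrier SLC25A6 at -0.067 and the phosphate carrier SLC25A3 at -0.053. Of 12 tested assembly factors, the 3 described above included, 7 had lower means as deposited, 2 after centring and 4 after quantile normalization. TMEM70, which helps to assemble complex V, was at 0.076. Of 5 regulators 2 had lower means, and 1 under either other scaling. PPARGC1A, a coactivator of mitochondrial genes, was at 5.55 ± 0.14 in control and 5.60 ± 0.12 in sialyllactose retinas, TFAM, which packs mitochondrial DNA, at 6.13 ± 0.11 in control and 6.14 ± 0.078 in sialyllactose retinas, and TFB1M, a methyltransferase of the mitochondrial ribosome, at 2.35 ± 0.22 in control and 2.14 ± 0.15 in sialyllactose retinas (difference -0.21, limma adjusted p = 0.753). Of 58 mitochondrial ribosomal protein genes, 42 had lower means as deposited and 36 under either other scaling, and 5 had an unadjusted p under 0.05, against 6.30% of all probe sets, among them MRPL13 at -0.12 and MRPL2 at -0.15 (limma adjusted p = 0.753 for both).

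Across retinas, the mean deviation of the oxidative phosphorylation genes went with that of the cytosolic ribosomal proteins (r = 0.77, and 0.80 and 0.74 within control and sialyllactose), the mitochondrial ribosomal proteins (0.63) and the citric acid cycle (0.59). With carriers and pores it was 0.58, but 0.90 within control and -0.20 within sialyllactose retinas, a difference that was not tested. Among the cell type lists, cone markers had r = 0.50 (0.21 without the 2 retinas farthest from the median of the cone list), endothelium and pericyte markers -0.40, red blood cell markers 0.24, muscle markers -0.20, pigment epithelium 0.17, ganglion and amacrine cells -0.14, Mueller glia -0.14, rods 0.12 and microglia -0.094. Of these lists, 8 of 8 endothelial genes had lower means with sialyllactose (6 under either other scaling), 7 of 9 Mueller glia genes (6), 4 of 5 pigment epithelium genes and 0 of 4 cone genes, with 0 adjusted calls, and their part in the values of the 63 genes was not tested.

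Among the 5647 other tested genes, those most like the mean of the 63 genes were CCNB1IP1, PSMB4, NACA, LIAS, RPL4, RPL14, ANP32B, NAA20, RPL38 and UBAC1, with r from 0.79 to 0.82 over 18 retinas. PSMB4 is a proteasome subunit, NACA a partner of nascent protein chains, LIAS the mitochondrial lipoic acid synthase, and RPL4, RPL14 and RPL38 are cytosolic ribosomal proteins. The 10 were picked as the highest of all 5647 genes over few retinas, so their r is no independent sign of likeness. Over all other genes the median r was 0.033, and the lowest was -0.78, that of GNPDA1. None of the 10 was called between diets, with limma adjusted p from 0.897 to 0.994.

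Where a gene had more than 1 tested probe set, these often did not vary alike. This held for 10 genes with 13 further probe sets, whose correlation with the brightest one had a median of 0.022 and ran from -0.33 (NDUFA1) to 0.42 (NDUFB3). The sign of the diet difference was shared in 9 of the 13 and not in the other 4, which belong to NDUFV2, NDUFAF1 and COX7C. For NDUFV2, the iron-sulphur partner of NDUFV1, the brightest probe set differed by -0.017, a sign that turned under both other scalings, and the others by 0.059 and 0.096.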

How the data were processed

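Retinal RNA of 18 piglets was measured on 18 arrays. The deposited table held 1 log2 value for each of 24123 probe sets and array, made by the authors with Affymetrix Expression Console and RMA, per the submitters' processing notes; versions and settings are not given in the sources used here. RMA draws arrays to a common distribution and shrinks differences of dim probe sets.

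Groups and replicate numbers came from the sample titles. From the values, 124 control probe sets and the 30% of the others with the lowest mean over all arrays (7200, limit 1.48) were left out, and 16799 were tested. Symbols came from the platform annotation, and all 63 gene identifiers were found in a RefSeq gene table. The brightest probe set stood for a gene. The diet difference, as sialyllactose minus control, was fitted in limma by lmFit and eBayes on all 18 arrays with no covariate, with Benjamini-Hochberg adjustment over all tested probe sets. R 4.3.3 and limma 3.58.1 were used, and the step was tested on simulated data. Correlations used values centred on the diet mean. The p-values measure the spread between piglets.

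Named genes were, per complex, up to 3 with the smallest p and up to 2 with the largest SD, then textbook core subunits and tissue isoforms, up to 3 genes of other lists and the 10 most alike others; further genes were named after their values were seen. The members, lists and rules were chosen with earlier results of these data known. Alternatives were other dim filters, 2 other scalings, the replicate number as a block, array weights, gene means, an exact rank-sum test, a threshold of 0.1, Spearman correlation, values not centred on the diet, and each array left out. Leaving out the 2 arrays with the largest actin difference and using that difference as a covariate were added after the data were seen. Promoter motifs and sequences were not analysed here.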

Additional observations from a re-analysis of the deposited data

Results flagged for a closer look

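Within each diet, 76 groups of 9 values (the named genes and the mean deviations) were searched for a retina far from the others, and 5 had one, where chance gives about 1 in 20. NDUFV3 was at 2.49 in control 1, with the next control retina at 2.12. SDHC was at 5.13 in control 5, with the next at 5.51. ATP5J was at 6.69 in control 2, with the next at 6.53. In sialyllactose 3, NDUFA11 was at 6.64 and COX6A1 at 8.74, with the next sialyllactose retinas at 6.75 and 8.89. Sialyllactose 3 is also the retina with the largest actin difference, and the part of that difference in these values was not tested.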

How the results depend on the processing

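No alternative gave a called gene: 0 of 63 had an adjusted p under 0.05, or under 0.1, in limma or the exact rank-sum test, with any filter, scaling, weighting or covariate tried and in each of the 18 fits without 1 array. The count of lower means was 28 with arrays centred on their medians, 31 with quantile normalization, 32 with the actin difference as a covariate, and 39 or 40 with the filters, weights and gene means; a filter of 50% kept 61 of the genes. Without single arrays it ran from 35 (without control 7) to 45 (without sialyllactose 4 or 5), and the median difference from -0.021 to -0.0040. Whether the replicate numbers pair the samples is not settled by the values. Same-numbered arrays correlated at -0.11 to 0.16, 3 of 9 above 0.1, and 3 of 9 correlated best with their own number. With the replicate number as a block there were 0 calls and 40 lower means.

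Signs turned for UQCR10 (0.0056 with centred arrays, 0.0038 with quantile normalization, 0.0071 with the actin covariate), NDUFA4 (0.014, 0.020 and 0.018), COX6A1 (0.0015 and 0.0067 under the 2 scalings), COX5B (0.013 with quantile normalization) and COX7C (-0.0097 with gene means); for COX7C the second probe set has the opposite sign. Centring adds 0.018 to every difference, which gives the turns under it; for those under quantile normalization and the covariate the cause was not tested. Leaving out single arrays turned the sign of ATP5G1 (-0.0025 to 0.031), ATP5G3 (-0.0090 to 0.011), COX6A1 (-0.028 to 0.0047), NDUFA4 (-0.024 to 0.0095), NDUFAF2 (-0.019 to 0.071), NDUFAF3 (-0.026 to 0.041), NDUFB9 (-0.0074 to 0.067), NDUFS1 (-0.015 to 0.030), NDUFS7 (-0.014 to 0.015), NDUFV3 (-0.0020 to 0.086) and UQCR10 (-0.027 to 0.0062). Of the 32 named genes, 23 had a difference that moved by over 1.5 times without some single array, these 11 included; ATP5A1, ATP5B, ATP5J, COX7A2, COX8H, NDUFA11, SDHA, SDHD and UQCRB did not. The median difference of complex II kept its sign in every fit, -0.064 to -0.033 without single arrays, and was -0.028 with centred arrays and with quantile normalization and -0.082 with gene means. The median correlation between pairs was 0.19 with centred arrays, 0.097 with quantile normalization, 0.12 as Spearman's rho and 0.11 to 0.15 without single arrays. RMA values carry no detection call, so dim genes such as NDUFV3 and NDUFAF1 may sit near background, and 9 arrays per diet limit what small differences can be seen.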
